A study of Mus musculus with 3 samples.

Results

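The AP-1 and BATF family genes are 10 basic leucine zipper (bZIP) transcription factor genes: Fos, Fosb, Fosl1, Fosl2, Jun, Junb, Jund, Batf, Batf3 and Atf3. They were chosen by name, and each was read from the 1 probe set that the platform annotation assigns to that symbol alone, so 10 of the 19935 genes with such a probe set are described. The RNA came from cultures of naive CD4+ T cells taken from wild-type C57BL/6 mice 8 weeks old. Naive cells are helper lymphocytes not yet exposed to antigen, and the word names the cells put into culture. One culture received IL-21, one received IL-6 together with TGFb1, and one received medium with vehicle. There was 1 array per culture, so no value has a replicate error and no difference has a test. The labels give no culture time, cytokine dose or T cell receptor stimulus, and do not say whether cells of several animals were pooled.

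bZIP proteins bind DNA as pairs held together by their leucine zippers. Jun proteins pair with each other or with Fos proteins to form AP-1, whereas Fos proteins need a Jun partner. BATF proteins also pair with Jun proteins, lack a transactivation domain of their own, and bind with IRF4 or IRF8 at composite sites in lymphocytes. In T cells AP-1 is induced by antigen receptor signalling and acts with NFAT on cytokine genes, and BATF with JUNB is needed for the development of mouse Th17 cells, the helper cells that make IL-17.

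The values are the deposited probe set intensities, on a linear scale, with array medians between 182 and 191. A difference is log2(intensity + 1) on one array minus the same on another. Of the 19935 genes, the 11003 whose highest intensity reached 187, the median of all values, were compared. All 10 AP-1 and BATF genes passed, but Fos and Fosb lay close to that level on every array. Of the 7 measured CD4+ T cell markers, 7 passed, with Cd4 at 6765, 6077 and 6858 with IL-21, with IL-6 + TGFb1, and with medium. Of the markers of other cells, 0 of 5 measured for macrophages, 0 of 3 for NK cells, 1 of 4 for B cells (Cd79b), 1 of 6 for dendritic cells (Zbtb46) and 1 of 2 for CD8 T cells (Cd8b1) passed. All 4 listed markers of T cell activation passed. Il2ra was at 10217 with IL-21, 9953 with IL-6 + TGFb1 and 10172 with medium, and Cd69 at 3154, 2789 and 4170. These markers were thus bright in the medium culture too, and the state of the harvested cells was not tested. In such bulk RNA, fewer cells that express a gene and less of its RNA per cell cannot be told apart.

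**Figure D1:**
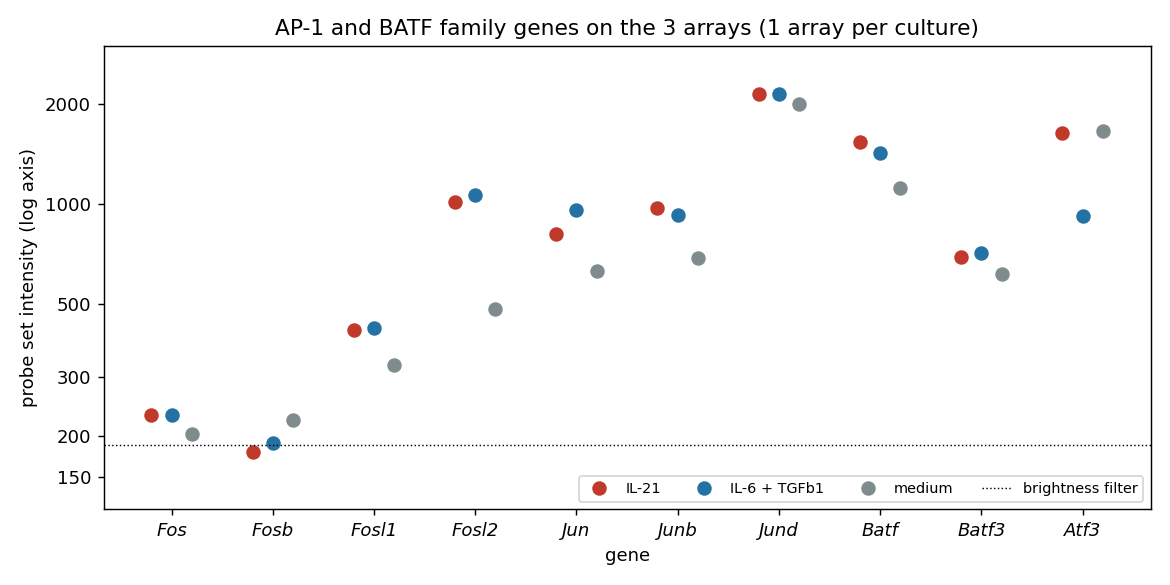
Probe set intensity (log axis) of each AP-1 and BATF family gene with IL-21, with IL-6 + TGFb1, and with medium, 1 point per array, with the brightness filter of 187 as a dotted line. Points are to be compared within a gene; Fosl2 lies at 1018 and 1066 in the treated cultures and at 481 with medium, and Atf3 is at 920.4 with IL-6 + TGFb1, below 1638 with IL-21 and 1661 with medium.

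Among the Fos genes, Fosl2 differed most between the cultures. Fosl2 encodes FRA-2, a Fos relative that lacks the strong carboxy-terminal activation domain of c-Fos. Its intensity was 1018 with IL-21, 1066 with IL-6 + TGFb1, and 481 with medium. Both treated cultures were thus above medium and close to each other. The log2 difference was 1.08 for IL-21 minus medium (2.11-fold), and only 40 of the 11003 compared genes had a higher one. It was 1.15 for IL-6 + TGFb1 minus medium (2.21-fold), with 58 genes higher. Between the treated cultures, IL-21 minus IL-6 + TGFb1, it was -0.07. Fosl2 was the only AP-1 or BATF gene past 2-fold in any comparison, although its IL-21 difference was 0.97, just short of 2-fold, after quantile normalization of the arrays, and the lowest value among the alternatives for IL-6 + TGFb1 was 1.06.

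The promoter window of Fosl2, the gene with the largest difference, is shown from 250 bases before to 50 bases after its start (RefSeq, GRCm38.p6, chr5:32136222-32136521, plus strand). Capitals mark its match to the core of the interferon-stimulated response element, read on the opposite strand, at positions -221 to -212 from the start.
Fosl2: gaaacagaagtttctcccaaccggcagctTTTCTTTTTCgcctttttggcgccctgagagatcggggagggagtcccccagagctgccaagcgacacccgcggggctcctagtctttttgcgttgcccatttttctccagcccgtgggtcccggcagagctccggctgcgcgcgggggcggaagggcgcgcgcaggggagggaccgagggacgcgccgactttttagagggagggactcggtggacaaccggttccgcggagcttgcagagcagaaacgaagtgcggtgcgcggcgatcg

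Fosl1, which encodes FRA-1, another Fos relative without that domain, had intensities of 416 with IL-21, 423 with IL-6 + TGFb1, and 326 with medium. Both treated arrays were higher than medium, with log2 differences of 0.35 for IL-21 and 0.38 for IL-6 + TGFb1. Fos, the prototype immediate early gene, was at 230.2 with IL-21, at 230.2 with IL-6 + TGFb1, and at 203 with medium. Its treated values were exactly equal in the deposited table, as they were for 13.0% of compared genes on these 2 arrays, and its difference from medium was 0.18 in each. Fosb, a further immediate early Fos gene, was the exception in the family, with 178 for IL-21, 189.8 for IL-6 + TGFb1, and 222 for medium. Its differences were -0.32 and -0.23, and it reached the brightness filter on the medium array and, narrowly, on the IL-6 + TGFb1 array, but not on the IL-21 array.

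All 3 Jun genes were higher with each treatment than with medium, but none reached 2-fold. Jun, whose protein can pair with itself or with Fos proteins, had intensities of 810.0 with IL-21, 957 with IL-6 + TGFb1, and 629 with medium. The order was IL-6 + TGFb1 first, then IL-21, then medium, with differences from medium of 0.61 for IL-6 + TGFb1 and 0.37 for IL-21. Junb, whose protein pairs with BATF in Th17 cells, was at 975 with IL-21, 929 with IL-6 + TGFb1, and 687 with medium. Its differences were 0.50 and 0.44, and the treated arrays were again closer to each other than to medium. Jund, which is expressed in many resting cells, hardly differed, with 2151 for IL-21, 2146 for IL-6 + TGFb1, and 2006 for medium, and a difference of 0.10 with each treatment.

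The window of Jun is shown because its difference with IL-6 + TGFb1 was the second highest of these genes (RefSeq, GRCm38.p6, chr4:95052173-95052472, minus strand, written in the direction of the gene). Capitals mark TGACATCA, a match to TGACNTCA, the cyclic AMP response element with 1 middle base left free, at positions -45 to -38 from the start.
Jun: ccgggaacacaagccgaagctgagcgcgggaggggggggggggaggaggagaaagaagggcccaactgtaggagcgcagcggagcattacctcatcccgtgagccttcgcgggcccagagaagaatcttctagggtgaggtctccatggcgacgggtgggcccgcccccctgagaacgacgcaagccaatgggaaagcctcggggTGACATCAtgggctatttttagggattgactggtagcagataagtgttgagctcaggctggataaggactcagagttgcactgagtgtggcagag

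Both Batf genes were higher with each treatment than with medium by less than 2-fold. Batf, which is required for Th17 cells in mice, had intensities of 1544 with IL-21, 1431 with IL-6 + TGFb1, and 1121 with medium. Its differences from medium were 0.46 with IL-21 and 0.35 with IL-6 + TGFb1. Batf3, which is best known as a factor of cross-presenting dendritic cells, was at 694 with IL-21, 711 with IL-6 + TGFb1, and 614 with medium, with differences of 0.18 and 0.21. Of the 6 dendritic cell markers only Zbtb46 passed the filter. It lay close to the filter of 187 on each array, at 181 with IL-21, 191 with IL-6 + TGFb1, and 212 with medium. Its differences of -0.22 and -0.15 are thus poorly measured, and the part of dendritic cells in the Batf3 values was not tested.

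Atf3, a stress-inducible factor whose homodimer represses transcription, departed from the rest. Its intensity was 1638 with IL-21, 920.4 with IL-6 + TGFb1, and 1661 with medium. Only the array with IL-6 + TGFb1 was low, and the other two nearly coincided. The difference was -0.85 for IL-6 + TGFb1 minus medium (1.80-fold lower), and only 55 compared genes had a lower one. For IL-21 minus medium it was -0.02, and it was 0.05, of the other sign, with arrays centred on their medians. Without the medium array, IL-21 minus IL-6 + TGFb1 gave 0.83 for Atf3 (1.78-fold), with 49 genes higher. Neither IL-6 nor TGFb1 was given alone on any array, so the parts of these agents cannot be told apart.

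The window of Atf3, the gene with the largest lower value, is shown for comparison with the others (RefSeq, GRCm38.p6, chr1:191183284-191183583, minus strand, written in the direction of the gene). Capitals mark the short site TGACG, the left part of the cyclic AMP response element, read on the opposite strand, at positions -7 to -3 from the start.
Atf3: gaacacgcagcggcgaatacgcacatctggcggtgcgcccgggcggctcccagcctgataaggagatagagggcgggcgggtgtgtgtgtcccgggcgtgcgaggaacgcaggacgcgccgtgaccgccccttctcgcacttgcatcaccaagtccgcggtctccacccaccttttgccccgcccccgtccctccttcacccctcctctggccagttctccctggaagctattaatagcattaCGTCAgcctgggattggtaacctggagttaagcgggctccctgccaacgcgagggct

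Promoter windows of 300 bases were matched for 9 of the 10 genes, all but Fosl1, and 6 motifs were searched on both strands, with a seventh added after the sequences were seen. The AP-1 site TGANTCA was found in 0 of the 9 windows and in 7.81% of all 32851 promoter windows. The full cyclic AMP response element TGACGTCA was found in 0 of 9 (1.79% of all), and TGACNTCA, which includes it, in 1 of 9 (8.83% of all), that of Jun. The STAT site TTCNNNGAA was in 1 of 9, that of Batf3 (8.30% of all), the interferon-stimulated response element core in 1 of 9, that of Fosl2 (3.44% of all), and the CArG box of serum response factor in 0 of 9 (1.63% of all). The added short site TGACG, which is part of TGACGTCA, was in 5 of 9 windows, those of Fos, Fosb, Junb, Batf and Atf3, and in 20.8% of all. These matches describe letters in a short window, and a window without a match says nothing about sites elsewhere.

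As a group, 8 of the 10 genes were above medium with IL-21, where 59.8% of all compared genes were above 0, and 2 were below, where 28.6% were. In that comparison 1 of 10 was at least 2-fold higher (0.482% of all compared genes) and 0 were at least 2-fold lower (0.109% of all). The median of the 10 differences was 0.27, against 0.04 over all compared genes. Fosl2 was the only one outside the range of -0.35 to 0.54 that holds the central 95% of all compared genes, and Junb at 0.50 and Batf at 0.46 lay just inside it. With the arrays centred on their medians 9 of the 10 were above medium, since Atf3 changed sign. That setting shifted all genes alike, and the median of all compared genes was then 0.10.

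With IL-6 + TGFb1, 8 of the 10 were again above medium (56.3% of all compared genes) and 2 below (36.6%), namely Fosb and Atf3. Here too 1 of 10 was at least 2-fold higher (0.673% of all compared genes) and 0 were at least 2-fold lower (0.364%). The median was 0.28, against 0.02 over all compared genes. Fosl2 at 1.15 and Jun at 0.61 lay above the central 95% of all genes, which ran from -0.35 to 0.59, and Atf3 at -0.85 lay below it. This comparison and the one with IL-21 subtract the same medium array, so a low or high medium value enters both.

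The direct comparison, IL-21 minus IL-6 + TGFb1, does not use the medium array. In it 4 of the 10 genes were above 0 (44.7% of all compared genes), 5 were below (42.3%) and Fos was at 0. With arrays centred on their medians, 7 were above and 3 below. Centring shifts every gene of a comparison by the same amount, and the median of all compared genes was then 0.043. The changed counts are thus no trait of these 10 genes. None was past 2-fold in either direction, against 0.273% of all compared genes on the higher side and 0.191% on the lower side. The median was -0.01, against 0.00 over all compared genes. Besides Atf3, the largest values were -0.24 for Jun and 0.11 for Batf, and Atf3 alone lay outside the central 95% of all genes, which ran from -0.29 to 0.35. For scale, the brightest 2 probe sets of the 629 genes with several bright ones differed from each other by a median of 0.05 in this comparison and 0.06 in each of the others, with 95th percentiles of 0.34 here, 0.41 for IL-21 minus medium and 0.37 for IL-6 + TGFb1 minus medium. Each AP-1 and BATF gene had 1 probe set only, so no such check exists within these genes.

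**Figure D2:**
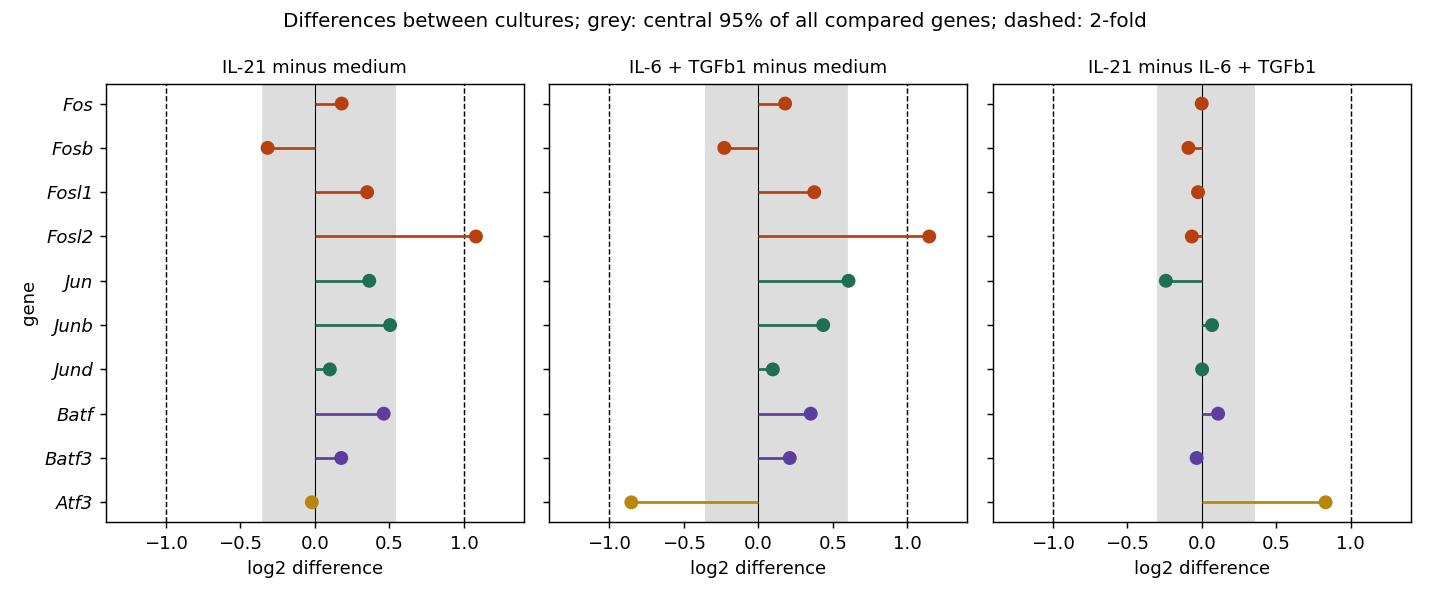
Log2 difference of each AP-1 and BATF family gene in the 3 comparisons (points and lines, coloured by family), with the central 95% of all compared genes in grey and 2-fold as dashed lines. Fosl2 passes 2-fold against medium in both treated cultures, and Atf3 stands at -0.85 and 0.83 in the comparisons that involve IL-6 + TGFb1, where it is nearly 0 for IL-21 minus medium.

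The genes most like Fosl2 over the 3 arrays, by distance between their pairs of log2 differences from medium, were Prnp, Bcl3, Castor1, Rbm12b2 and Sbno2. Prnp, the prion protein gene, had intensities of 608 with IL-21, 627 with IL-6 + TGFb1, and 279 with medium. Bcl3, an IkB family coregulator, had 2828, 2820 and 1303 in the same order of cultures. The distances ran from 0.05 for Prnp to 0.17 for Sbno2, and since only 3 arrays enter, many genes can share such a pattern.

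Partner genes of these factors were described from a list of 6. Nfatc2, a calcium-regulated factor that binds DNA with AP-1, was at 1048 with IL-21, 1173 with IL-6 + TGFb1, and 738 with medium, with differences from medium of 0.51 and 0.67. Irf8, a partner of BATF, was lower than medium in both treated cultures (-0.51 and -0.48), whereas Irf4, the other such partner, was at 5628, 5757 and 5527 and differed by 0.03 and 0.06. Stat3, the factor activated by IL-21 and IL-6, had differences of 0.33 and 0.31, Nfatc1 of 0.19 and -0.01, and Nfatc3 of 0.02 and 0.06. None of the 6 was past 2-fold, where at most 0.673% of all compared genes were in any direction of a comparison.

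The other bZIP genes centred on 0. Of 31 listed, 26 were compared. With IL-21, 0 were at least 2-fold higher (0.482% of all compared genes) or lower (0.109%), and the median was 0.00, against 0.04 over all. With IL-6 + TGFb1 1 was at least 2-fold higher (0.673% of all), Maf, a Th17 and follicular helper factor (2.77, against 0.12 with IL-21). Nfil3, a repressor with a bZIP domain, had differences of 0.94 with IL-21 and 0.61 with IL-6 + TGFb1. Crem, a factor of the cyclic AMP pathway, had 0.57 and 0.61, and Atf6, a sensor of unfolded proteins in the endoplasmic reticulum, had 0.45 and 0.41.

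Upstream of AP-1, 18 of 23 listed kinases and transcription factors were compared. None was past 2-fold in either treatment, where at most 0.673% of all compared genes were in any direction. Their medians were 0.11 with IL-21 and 0.12 with IL-6 + TGFb1. Map3k1, a kinase upstream of JNK, had the highest difference with IL-21 (0.40, and 0.30 with IL-6 + TGFb1), and Elk3, an ETS partner of serum response factor, the highest with IL-6 + TGFb1 (0.41, and 0.23 with IL-21). Of 7 genes that control the stability of Fos and Jun proteins, 7 exceeded their medium value with IL-21, where 59.8% of all compared genes did. With IL-6 + TGFb1 5 did (56.3% of all). Their medians were 0.11 and 0.04, against 0.04 and 0.02 over all compared genes. Fbxw7, which encodes the substrate receptor of a ubiquitin ligase that targets c-Jun, had 0.60 and 0.38, and Itch, a ubiquitin ligase for JUNB and c-Jun in T cells, had 0.23 and 0.04. Cop1 and Det1, parts of another ubiquitin ligase complex that targets c-Jun, had 0.04 each with IL-21 and -0.20 and -0.19 with IL-6 + TGFb1.

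Immediate early genes, which share inducing signals with Fos and Jun, were described from a list of 14. With IL-21, 11 were above medium, where 59.8% of all compared genes were. None was at least 2-fold higher (0.482% of all) or lower (0.109%), and the median was 0.25, against 0.04 over all. With IL-6 + TGFb1, 10 were above (56.3% of all compared genes). None was at least 2-fold higher (0.673% of all) or lower (0.364%), and the median was 0.15, against 0.02 over all. Ier3 had the highest difference in both (0.86 each), and Nr4a3 the lowest (-0.63 and -0.95). Ier3 was at 300.8 on each treated array, exactly equal in the deposited table, and at 165.6 with medium. That medium value is below the brightness filter, so Ier3 was compared only because of its treated values and its difference is poorly measured. In the direct comparison 12 of the 14 were above 0 (44.7% of all compared genes) and the median was 0.16, against 0.00 over all. Egr2, a zinc finger factor, was the highest of them (0.40), beside the 0.83 of Atf3. Of 4 T cell activation markers, 4 were below medium with IL-6 + TGFb1 (36.6% of all compared genes), among them Cd69 (-0.58) and Tnfrsf9 (-0.43). With IL-21, 2 were below (28.6% of all). In the direct comparison Tnfrsf9 had 0.72, Cd69 0.18, Il2ra 0.04 and Cd44 -0.10. The part of these levels in the values of Atf3 was not tested.

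Of 17 listed T cell genes with AP-1 or BATF sites 14 were compared. With IL-21, 2 of the 14 were at least 2-fold higher (0.482% of all compared genes), the cytokine gene Il21 and the receptor gene Il23r. At least 2-fold lower was 1 (0.109% of all), Ifng (-1.16). The list median was 0.24, against 0.04 over all compared genes. With IL-6 + TGFb1, 5 were at least 2-fold higher (0.673% of all compared genes), namely Il21, Il23r, Il17f, Maf and the nuclear receptor gene Rora. At least 2-fold lower was 1 (0.364% of all), again Ifng. The list median was 0.15, against 0.02 over all compared genes. Il21 was at 1780.0 with IL-21, 3073 with IL-6 + TGFb1 and 43.0 with medium. Il23r was at 418, 1596 and 77.9, and Il17f at 185, 1896 and 160.3, in the same order of cultures. These 3 genes were below the brightness filter of 187 with medium and were compared only because of their treated values, so the sizes of their differences are poorly measured and are not given. Il2, the classical NFAT and AP-1 target, was at 2963 with IL-21, 1604 with IL-6 + TGFb1, and 2445 with medium, with differences from medium of 0.28 and -0.61. In the direct comparison Il2 stood at 0.88, but 7 of the 14 genes were above 0 and 7 below, with a list median of -0.12. Of the 14, 1 was at least 2-fold higher (0.273% of all compared genes). It was Il4, at 342 with IL-21 and 152, below the brightness filter, with IL-6 + TGFb1. At least 2-fold lower were 4 (0.191% of all), namely Il17f, Maf, Il23r and Rora.

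Of 14 genes listed as general AP-1 targets in many cell types 8 were compared. With IL-6 + TGFb1, 2 of the 8 were at least 2-fold higher (0.673% of all compared genes). They were Timp1, a metalloproteinase inhibitor (2.99), and Emp1, a membrane protein (2.87). With IL-21 their differences were 0.88 and 0.79, short of 2-fold. Timp1 was below the brightness filter on the other arrays, at 161 with IL-21 and 86.9 with medium, and Emp1 was below it with medium, at 162, so the sizes of these differences are poorly measured too. Plaur, the urokinase receptor gene, was the only one of the 8 at least 2-fold lower, in both comparisons. It had -1.62 with IL-21, where 0.109% of all compared genes were at least 2-fold lower. With IL-6 + TGFb1 it had -1.37 (0.364% of all). The medians of the 8 were 0.16 with IL-21 and 0.35 with IL-6 + TGFb1, against 0.04 and 0.02 over all compared genes.

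**Figure D3:**
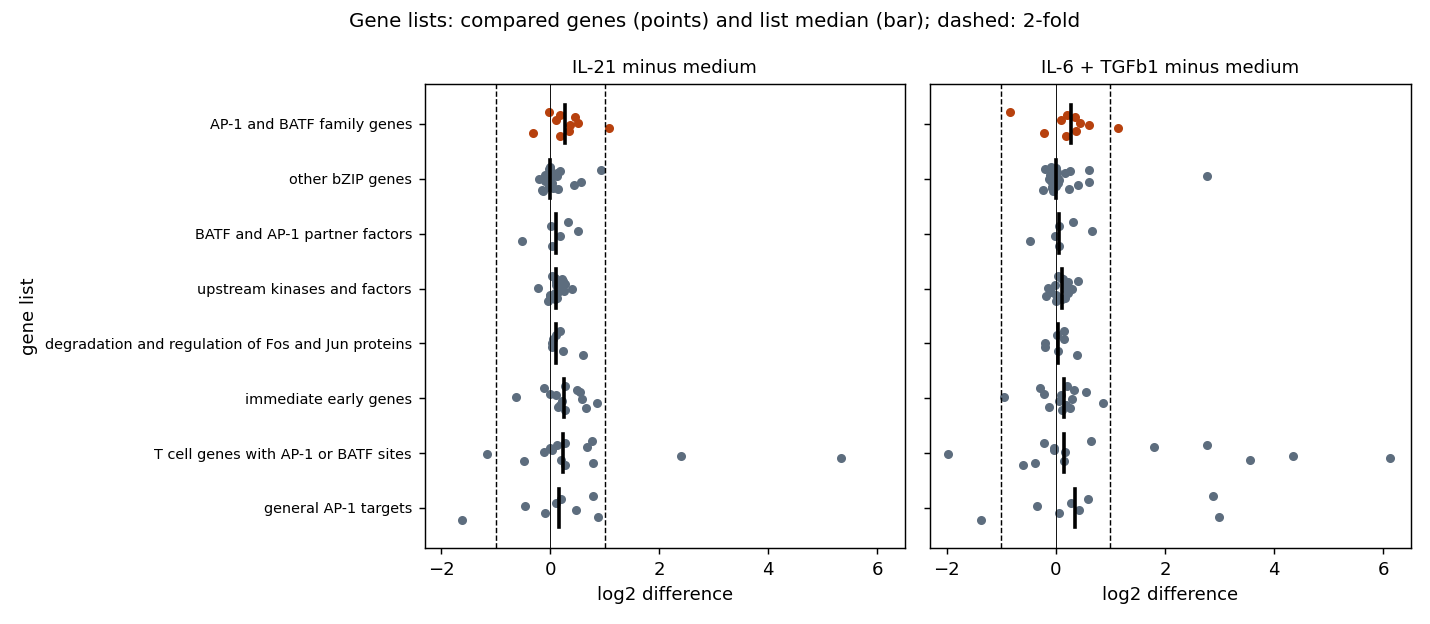
Log2 differences from medium of the compared genes of each list (points) with the list median (bar), for IL-21 on the left and IL-6 + TGFb1 on the right, with 2-fold as dashed lines. The AP-1 and BATF family medians are 0.27 and 0.28, and the other bZIP genes centre on 0. The most distant points, Il21, Il23r and Il17f, were below the brightness filter on the medium array.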

How the data were processed

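Total RNA of 3 cultures, 1 array each, was biotinylated with a whole-transcript labelling kit from Affymetrix and hybridized by a contractor, per the labels' protocols. The deposited table holds linear intensities of 28815 probe sets. The genome build was mm8, per the submitters' processing notes, and the steps from scan to intensity are not given in the sources used here. Of the probe sets, 21780 had exactly 1 symbol in the platform annotation, 1605 had several and 5430 had none listed. The probe set with the highest mean stood for a gene. Differences of log2(intensity + 1) were computed in Python 3.11.15 with pandas 2.3.3, with no further normalization, and the calculation was tested on simulated data. Without replicates nothing could be tested, so a gene past 1 or -1 on the log2 scale was called 2-fold higher or lower. The number of arrays limits the precision. Promoter windows were taken from RefSeq (GRCm38.p6), and protein sequences were not used here. All 10 genes were named with their values. Of each companion list up to 4 genes with the largest differences were named in a comparison, or every gene of lists of up to 8, and the 5 genes nearest to any gene past 2-fold. Il2 and Rora fall outside this rule and were named after their values were seen. The genes and lists were chosen with earlier results of these data known. The 9 alternatives changed the pseudocount, a floor on low values, the brightness filter, the normalization and the choice of probe sets.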

Additional observations from a re-analysis of the deposited data

How the results depend on the processing

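The 9 alternatives gave 339 values. Of these, 310 kept within the median gap between 2 probe sets of a gene (for counts, within 1.5 times) and 27 did not. The other 2, medians that changed sign, were counted apart whatever their shift. Many of the 310 were fixed in advance. Each gene had 1 probe set, passed the filter and lay above the floor of 69, so the floor, dropping the filter and the choice among a gene's probe sets could change nothing. For IL-21 minus medium, centring the arrays moved each of the 10 genes past the gap of 0.064. Centring shifts every gene by the same amount, as for Fos from 0.18 to 0.25, so these are not 10 separate shifts. Quantile normalization moved all but Fos and Fosb past the gap. The brightness filter at 785 left out Fos, Fosb, Fosl1 and Batf3. The median of the AP-1 and BATF genes was then 0.41 for IL-21 minus medium and 0.39 for IL-6 + TGFb1 minus medium. In the direct comparison it was 0.036, opposite in sign to the -0.01 over all 10. The medians of all genes compared at that filter were 0.043, 0.025 and 0.004 in the same order. With arrays centred on their medians, the median of the 10 genes was 0.33 for IL-21 minus medium, against 0.10 over all compared genes. In the direct comparison it was 0.031, again of opposite sign, but below the 0.043 over all compared genes. With quantile normalization 0 of the 10 genes were at least 2-fold higher with IL-21, against 1, because Fosl2 was at 0.97. Causes were not tested. No test was run under any setting, so no p-value stands behind these counts. No paired analysis was possible because each group has 1 array. Signal close to background limits the values of Fos and Fosb, and the lack of replicates limits every difference.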
